A study of Drosophila melanogaster with 6 samples.

Results

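Heat shock proteins and their constitutively made cognates are molecular chaperones, proteins that bind unfolded polypeptides and help them fold, assemble or stay soluble. The set examined held 10 genes of Drosophila melanogaster: the small heat shock proteins Hsp22, Hsp23, Hsp26 and Hsp27, the inducible Hsp70 relative Hsp68, the Hsp90 protein Hsp83, the Hsp70 cognates Hsc70-3, Hsc70-4 and Hsc70-5, and the mitochondrial chaperonin Hsp60A. They were chosen by name, and 7 of the 10 had a probe set of their own on the array, out of 10844 genes measured in all. Hsp22 shared each of its 3 probe sets with the gene CG4456, and a probe set naming several genes was not used. Hsp23 and Hsp83 are not analysed here.

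RNA was compared between GFP-positive and GFP-negative cells separated by fluorescence-activated sorting from embryos of 1 genotype, TinD-GFP. Its reporter insertion is meant to mark the Tinman-expressing cardiac mesoderm. Both groups came from dissociated embryos at late stage 11 to early stage 12, so the reporter insertion and the dissociation were common to them. The GFP made from the insertion was not, since the cells were sorted on it. Each group had 3 Affymetrix arrays. The GFP-negative cells are the remaining cells of those embryos and no single cell type. Nothing in the labels ties the replicates to separate embryo collections or sorts, so the p-values reflect the spread among these arrays alone, and that spread may be technical. In sorted bulk RNA, fewer cells with a transcript and less of it per cell cannot be told apart.

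In fly cells, heat and other damage release the heat shock transcription factor Hsf to switch on Hsp68, the Hsp70 genes and the small heat shock protein genes, which are otherwise quiet in most cells. Several small heat shock genes are also made without stress at set times of development. The cognates are made in all growing cells, where Hsc70-4 serves the cytosol and nucleus, Hsc70-3 the lumen of the endoplasmic reticulum, and Hsc70-5 and Hsp60A the mitochondrial matrix.

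None of the 7 measured members differed past the threshold of 0.05 between GFP-positive and GFP-negative cells. By limma, fitted with the trend and robust options so that the prior variance follows the signal level, 0 of 7 passed after Benjamini-Hochberg adjustment over all probe sets, where 2.47% of all genes passed. At an unadjusted p under 0.05 there was 1 member, Hsp68, against 15.6% of all genes. The same counts, 0 and 1, came from limma with a single prior variance, where 0.0% and 10.8% of all genes passed. The groups did not overlap in 2 members, Hsp26 and Hsp68, both higher in GFP-positive cells, and 9.28% of all genes were higher without overlap and 11.0% lower. The 7 log2 differences ran from -0.02 to 0.84 with a median of 0.07, beside -0.02 over all genes. Hsp27, Hsc70-4, Hsc70-5 and Hsp60A lay closest to 0, as the plot of signal on each array shows.

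**Figure D1:**
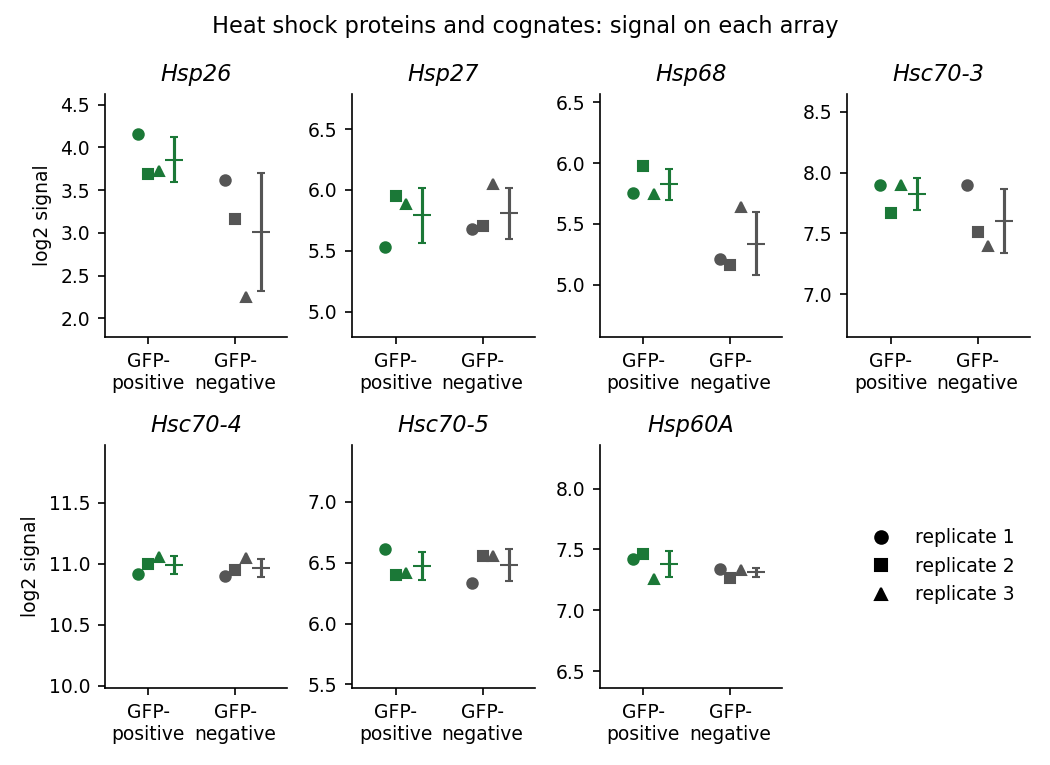
Log2 signal (y axis) of the 7 measured members on the 3 GFP-positive (green) and 3 GFP-negative (grey) arrays. Symbols give the replicate number, and the bar beside them is the mean with 1 SD. Each y axis has its own range. The groups are apart for Hsp26 and Hsp68 and overlap for the other members.

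Hsp26 and Hsp27 encode small heat shock proteins, which hold damaged proteins in a refoldable state without using ATP, and their genes lie in the same cluster. Hsp26 had log2 signals of 4.15, 3.68 and 3.73 in GFP-positive cells, against 3.62, 3.16 and 2.26 in GFP-negative cells. Every GFP-positive array lay above every GFP-negative one, but the gap between the nearest arrays was small and GFP-negative replicate 3 stood well below the other two. Hsp26 averaged 3.85 ± 0.26 (SD) in GFP-positive cells and 3.01 ± 0.69 in GFP-negative cells, with n = 3 in each. The log2 difference was 0.84 ± 0.43 (SE), with a 95% interval of -0.13 to 1.82 (limma adjusted p = 0.420). Leaving out GFP-negative replicate 3 brought it to 0.47.

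The Hsp26 signal was low. The background level, the highest mean among 23 control probe sets for other organisms, was 2.44, and GFP-negative replicate 3 lay below it. On single arrays the brightest of these controls reached 2.58 to 3.55. The pooled SD within groups for Hsp26, 0.52, was close to the median of 0.55 over the 1662 probe sets within 0.5 of its level.

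For Hsp27 the groups overlapped. Its log2 signals were 5.53, 5.95 and 5.88 in GFP-positive cells, against 5.68, 5.70 and 6.05 in GFP-negative cells. The highest signal was on GFP-negative replicate 3 and the lowest on GFP-positive replicate 1. The log2 difference was -0.02 ± 0.15 (SE, limma adjusted p = 0.977). Its 95% interval, -0.36 to 0.33, spans folds of 0.777 to 1.26. Its sign turned when GFP-positive replicate 1 was left out (0.11) and when GFP-negative replicate 3 was (0.10).

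Hsp68, an inducible member of the Hsp70 family, had log2 signals of 5.75, 5.97 and 5.75 in GFP-positive cells, against 5.21, 5.17 and 5.64 in GFP-negative cells. All GFP-positive arrays were above all GFP-negative ones, with GFP-negative replicate 3 close to the GFP-positive range. Hsp68 averaged 5.82 ± 0.13 (SD) in GFP-positive cells and 5.34 ± 0.26 in GFP-negative cells, with n = 3 in each, a 1.40-fold difference. On the log2 scale it was 0.49 ± 0.15 (SE), with a 95% interval of 0.14 to 0.83. It did not pass adjustment over all probe sets (limma, unadjusted p = 0.011, adjusted p = 0.159). Leaving out GFP-negative replicate 3 gave 0.64 (adjusted p = 0.096). A 2-sided exact permutation test gave 0.1 for Hsp68 and for Hsp26, which is the smallest p that 3 against 3 arrays allow.

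The plot of differences with their intervals sets the inducible genes beside the cognates. Intervals were widest for Hsp26 and narrowest for Hsc70-4.

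**Figure D2:**
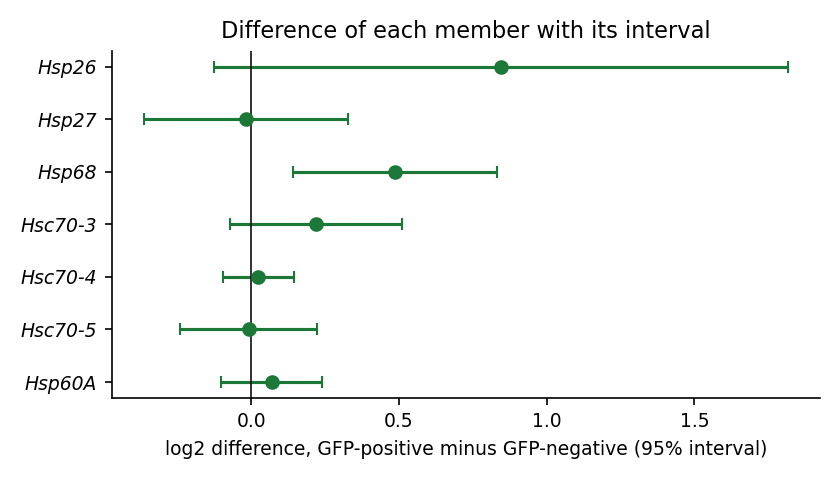
Log2 difference of each member, GFP-positive minus GFP-negative (x axis), with its 95% interval from limma, not adjusted for the number of probe sets. The interval of Hsp68 lies above 0, and those of the other 6 members include 0.

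Hsc70-4, the major cytosolic Hsp70 cognate, which also uncoats clathrin vesicles, had log2 signals of 10.91, 11.00 and 11.06 in GFP-positive cells, against 10.90, 10.95 and 11.05 in GFP-negative cells. The 2 groups covered nearly the same range. Hsc70-4 averaged 10.99 ± 0.072 (SD) in GFP-positive cells and 10.97 ± 0.074 in GFP-negative cells, with n = 3 in each. The log2 difference was 0.02 ± 0.053 (SE, limma adjusted p = 0.902) and the 95% interval of its fold was 0.935 to 1.10, the narrowest among the 7.

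Hsc70-3, the fly BiP, takes part in folding of secreted and membrane proteins in the endoplasmic reticulum. Log2 signals were 7.89, 7.67 and 7.90 in GFP-positive cells, against 7.90, 7.51 and 7.40 in GFP-negative cells. GFP-negative replicate 1 lay with the upper GFP-positive arrays and the other GFP-negative arrays lay below all of them. The log2 difference was 0.22 ± 0.13 (SE), with a 95% interval of -0.07 to 0.51 (limma adjusted p = 0.503). Leaving out GFP-negative replicate 1 gave 0.36, and leaving out GFP-negative replicate 3 gave 0.12.

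The within-group spread of Hsc70-3 was large for its level. Its pooled SD of 0.21 exceeded that of 96.1% of the 723 probe sets within 0.5 of its mean, whose median was 0.095. The name of the probe set used ends in f, which on this kind of array marks probes that can match several related genes. The gene's other probe set averaged 1.46 in GFP-positive cells and 1.45 in GFP-negative cells, both below the background level, and shows no direction.

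Hsc70-5, the mitochondrial Hsp70 that drives protein import and iron-sulfur cluster assembly, had log2 signals of 6.61, 6.40 and 6.41 in GFP-positive cells, against 6.33, 6.56 and 6.56 in GFP-negative cells. Both the highest and the lowest value carried replicate number 1, in opposite groups, and the remaining GFP-positive arrays lay below the remaining GFP-negative ones. The log2 difference was -0.01 ± 0.10 (SE), with a 95% interval of -0.24 to 0.22 (limma adjusted p = 0.982). Hsp60A, whose product forms the folding chamber of the mitochondrial matrix, had log2 signals of 7.43, 7.46 and 7.26 in GFP-positive cells, against 7.34, 7.27 and 7.33 in GFP-negative cells. GFP-positive arrays held both the highest and the lowest Hsp60A signal. The log2 difference was 0.07 ± 0.075 (SE), with a 95% interval of -0.10 to 0.24 (limma adjusted p = 0.755). It was 0.030 without GFP-positive replicate 2 and 0.13 without GFP-positive replicate 3.

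The other chaperone genes were read from 6 lists of small heat shock proteins, Hsp70 and Hsp90 families with their partners, J proteins, mitochondrial chaperonins and endoplasmic reticulum stress. Apart from the members, 64 genes of these lists were measured, of which 1 rose, none fell and 63 did not pass, against 1.5% of all genes called higher and 0.968% called lower. At an unadjusted p under 0.05 there were 7 higher and 5 lower, against 7.33% and 8.29% of all genes. Their median log2 difference was 0.02, beside -0.02 over all genes.

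The gene that rose was ERp60, a protein disulfide isomerase that forms and shuffles disulfide bonds in the endoplasmic reticulum. Its log2 signals were 8.95, 9.10 and 9.13 in GFP-positive cells, against 8.71, 8.65 and 8.69 in GFP-negative cells, with the GFP-positive arrays all higher. It rose by 0.37 ± 0.061 (log2, SE, n = 3 per group, limma adjusted p = 0.018), a 1.30-fold change. The adjusted p was 0.381 with a single prior variance, and the call held in 2 of 6 fits without 1 array. It was lost when replicate 2 or 3 of either group was left out (adjusted p of 0.068 to 0.089). In the list of endoplasmic reticulum genes, which also contains the member Hsc70-3, 13 of 19 measured genes had a positive difference and the median was 0.12. Of all genes 47.3% had a positive difference. At an unadjusted p under 0.05 this list had 4 higher and 0 lower, against 7.33% and 8.29% of all genes. Without overlap 2 were higher and 1 lower, against 9.28% and 11.0%. Grp170, the exchange factor that serves BiP and belongs to the Hsp70 family list, had 6.66, 6.84 and 6.85 in GFP-positive cells, against 6.41, 6.58 and 6.61 in GFP-negative cells. Its groups did not overlap and the difference of 0.25 ± 0.092 did not pass (SE, limma adjusted p = 0.244).

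Genes that work with Hsp70 and Hsp90 in the cytosol lay on both sides of 0. Cdc37, which delivers protein kinases to Hsp90, had log2 signals of 7.29, 7.31 and 7.41 in GFP-positive cells, against 7.71, 7.53 and 7.70 in GFP-negative cells. Every GFP-positive array was below every GFP-negative one. The difference was -0.31 ± 0.076 (SE, limma adjusted p = 0.080). Sgt, a small co-chaperone with tetratricopeptide repeats, differed by -0.28 ± 0.073 (adjusted p = 0.098), again without overlap. Without the dimmest 40% of probe sets both passed as lower (limma adjusted p of 0.037 for Cdc37 and 0.048 for Sgt). DnaJ-1, the heat-inducible Hsp40 that stimulates Hsp70, had 7.94, 8.00 and 7.94 in GFP-positive cells, against 7.74, 7.75 and 7.79 in GFP-negative cells. The DnaJ-1 groups were apart and their spread was narrow, but the difference of 0.20 ± 0.057 did not pass (adjusted p = 0.129).

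By limma 0 of 10 genes of the Hsp90 list passed, against 2.47% of all genes, and their median log2 difference was -0.01. At an unadjusted p under 0.05 there were 5, 2 higher and 3 lower, against 15.6% of all genes. The J protein list had 0 of 19 and 1 by the same measures, with a median of -0.03, and CG10565 differed by -0.12 ± 0.057 (adjusted p = 0.406). In the Hsp70 list it was 0 of 11 and 3, members included, with a median of 0.02, and Roe1, the exchange factor of the mitochondrial Hsp70, differed by -0.47 ± 0.18 (adjusted p = 0.257).

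The small heat shock list, the members Hsp26 and Hsp27 included, had 0 of 6 and 0 at an unadjusted p under 0.05, with a median of 0.28. Of the 6, 4 had a positive difference, beside 47.3% of all genes. CG13133 differed by 0.80 ± 0.52 with overlapping groups (adjusted p = 0.552), and CG7409 was below the background level in both groups. The GFP-negative mean of CG13133, 2.64, was near that level of 2.44. The mitochondrial list, the member Hsp60A included, had 0 of 9 and 1, with a median of 0.06. The matrix protease gene ClpP differed by -0.21 ± 0.076 (adjusted p = 0.229), and Hsp60C was below the background level in both groups. With a single prior variance 0 genes passed in each of these lists.

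**Figure D3:**
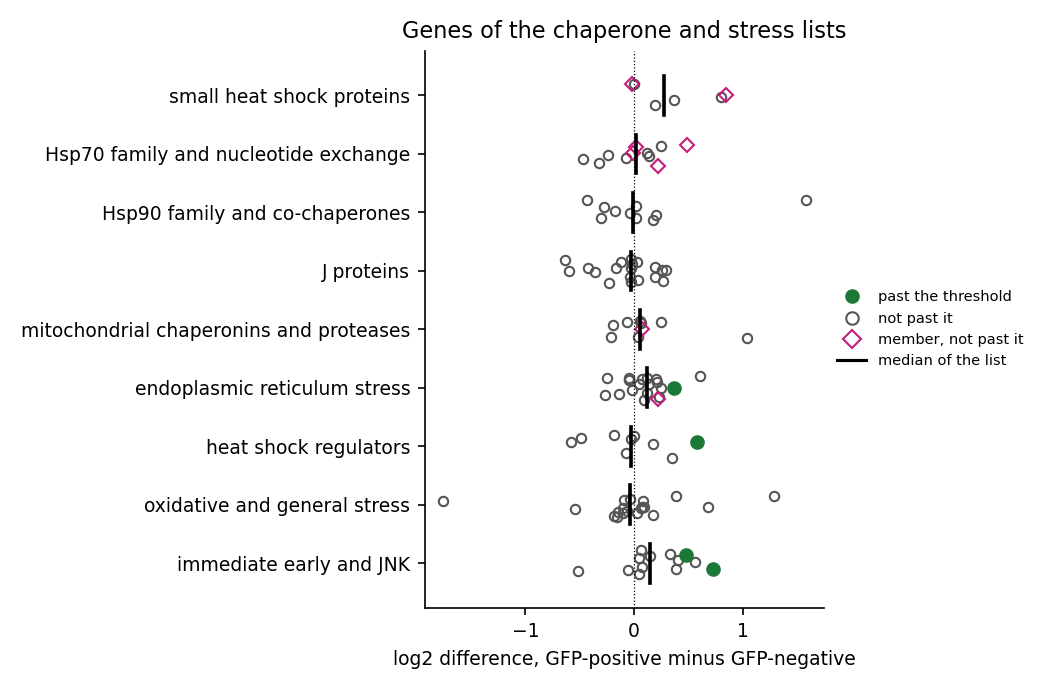
Log2 difference of each measured gene, GFP-positive minus GFP-negative (x axis), by list. Filled circles passed the threshold, open circles and diamonds (the members) did not, and vertical bars are list medians. A gene on several lists is drawn in each. The filled genes are ERp60, Trl, puc and skl, all to the right of 0.

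Among regulators of heat shock genes, Trl, which encodes the GAGA factor that keeps heat shock promoters open, was higher in GFP-positive cells. Its log2 signals were 7.68, 7.60 and 7.78 in GFP-positive cells, against 6.93, 7.20 and 7.19 in GFP-negative cells. The groups were well apart. It rose by 0.58 ± 0.091 (SE, limma adjusted p = 0.016). After an adjustment for gene span the difference was 0.40 (adjusted p = 0.105), with a single prior variance its adjusted p was 0.288, and the call held in 2 of 6 fits without 1 array. It was lost without any 1 GFP-positive array or without GFP-negative replicate 3 (adjusted p of 0.052 to 0.072). Of the 9 measured regulators 1 rose and 8 did not pass, and the list median was -0.03. At an unadjusted p under 0.05 there were 2 higher and 2 lower, against 7.33% and 8.29% of all genes. Hsf itself, given although the naming rule did not select it, had 6.81, 6.68 and 6.87 in GFP-positive cells, against 6.59, 6.55 and 6.69 in GFP-negative cells. Its groups overlapped slightly and the difference of 0.18 ± 0.085 did not pass (SE, adjusted p = 0.382).

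Other stress genes were examined in 2 further lists. Of 13 measured immediate early, JNK and cell death genes, 2 rose, none fell and 11 did not pass, with a median log2 difference of 0.15. Over all genes 1.5% were called higher. An unadjusted p under 0.05 was reached by 4 of the 13, all higher, against 7.33% of all genes. The reaper-family death gene skl (sickle) had 6.05, 6.15 and 6.30 in GFP-positive cells, against 5.51, 5.44 and 5.37 in GFP-negative cells. It was higher on every GFP-positive array and rose by 0.72 ± 0.11 (SE, limma adjusted p = 0.012). The call of skl held in 4 of 6 fits without 1 array and failed with GFP-positive replicate 2 left out (adjusted p = 0.062), with GFP-negative replicate 3 left out (0.058) and under a single prior variance (0.212). puc, the phosphatase that feeds back on JNK, had 6.24, 6.23 and 6.06 in GFP-positive cells, against 5.67, 5.75 and 5.65 in GFP-negative cells. These groups did not overlap, and puc rose by 0.48 ± 0.099 (SE, adjusted p = 0.042). The puc call was lost whichever array was left out (adjusted p of 0.066 to 0.153), with a single prior variance (0.303) and after the span adjustment (difference 0.31, adjusted p = 0.268).

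**Figure D4:**
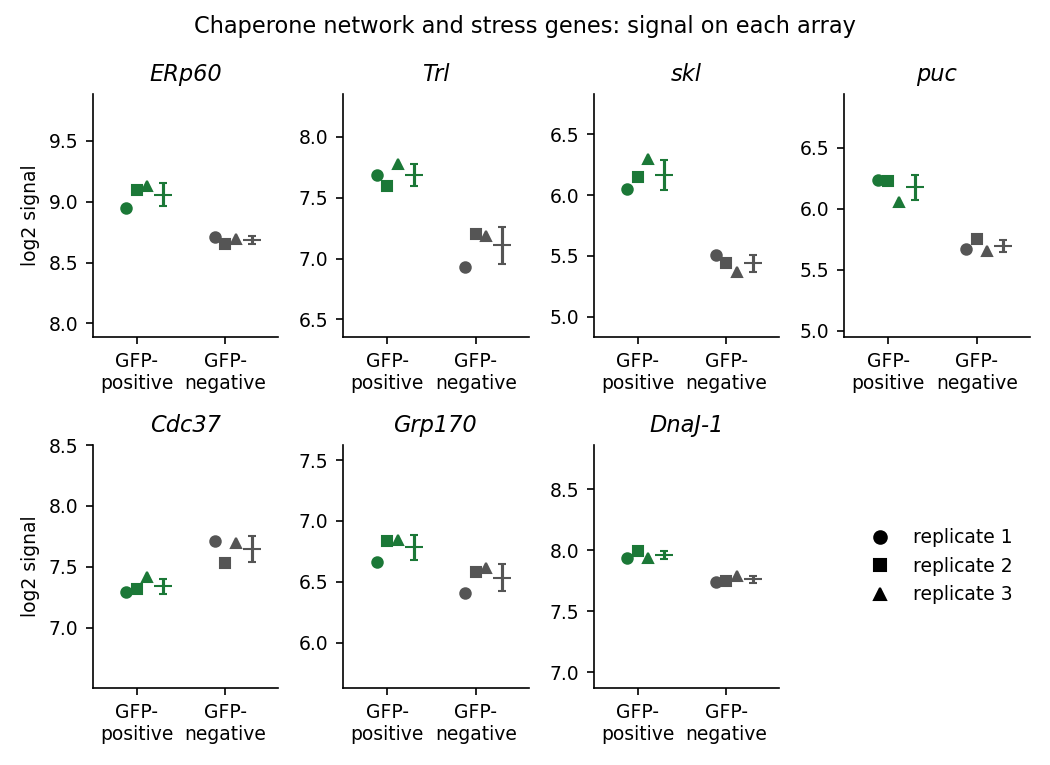
Log2 signal (y axis, own range per panel) of 7 genes of the chaperone and stress lists on the 3 GFP-positive (green) and 3 GFP-negative (grey) arrays. Symbols give the replicate number, and the bar is the mean with 1 SD. ERp60, Trl, skl and puc passed the threshold, Cdc37, Grp170 and DnaJ-1 did not, and the groups are apart in all 7.

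The oxidative stress list had 0 of 19 genes past the threshold by limma, 3 at an unadjusted p under 0.05, 0 with a single prior variance, and a median of -0.04. An unadjusted p under 0.05 was found for 15.6% of all genes. Gclc, the catalytic subunit of glutamate-cysteine ligase, which makes glutathione, had 1.47, 2.39 and 1.56 in GFP-positive cells, against 2.75, 4.07 and 3.88 in GFP-negative cells. All its GFP-positive values lay below the background level, and the gene did not pass (adjusted p = 0.164). The glutathione transferase gene GstD2 had 3.06, 3.63 and 3.10 in GFP-positive cells, against 2.23, 1.35 and 2.34 in GFP-negative cells, where it was below that level (adjusted p = 0.279).

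Markers of cell types were set beside these values. Over all genes 1.5% were called higher and 0.968% lower by limma. At an unadjusted p under 0.05 the shares were 7.33% and 8.29%, and without overlap 9.28% and 11.0%. Somatic muscle genes were higher in GFP-positive cells, with 7 of 13 called, among them lmd, sing, rst and blow, and their summed linear signal was 1193 to 1285 in GFP-positive cells against 749 to 805 in GFP-negative cells. Of 17 measured cardiac and dorsal mesoderm genes 2 rose, Him and bap, and none fell. At an unadjusted p under 0.05 there were 4 higher and 3 lower, and 6 were higher and 4 lower without overlap. The 4 lower ones, named after their values were seen, were pnr (-0.29), Doc1 (-0.21), Doc2 (-0.42) and Doc3 (-0.36, all log2 differences). The sums of the list were 982 to 1023 in GFP-positive cells against 864 to 951 in GFP-negative cells. tin is not analysed here, and the heart factor Hand averaged 2.49 in GFP-positive cells and 1.10 in GFP-negative cells, at and below background. Germ cell markers had 1 of 13 called, tud, and sums of 586 to 685 in GFP-positive cells against 569 to 615 in GFP-negative cells. Among hemocyte markers 2 of 19 were called, Ppn and vkg, and 12 were higher and none lower at an unadjusted p under 0.05. Without overlap 10 hemocyte markers were higher and 1 lower, with sums of 1379 to 1499 in GFP-positive cells against 1099 to 1142 in GFP-negative cells. The lists for neurons, epidermis and midgut had 0 of 13, 0 of 11 and 0 of 12 called by limma (5, 1 and 2 at an unadjusted p under 0.05, and 0 with a single prior variance). By direction, the unadjusted counts were 4 higher and 1 lower for neurons, 1 and 0 for epidermis, and 1 and 1 for midgut. Without overlap they were 5 and 1, 1 and 0, and 1 and 2. Positive differences were found for 10 of 13, 7 of 11 and 2 of 12 genes, beside 47.3% of all genes. The part of these cells in the values of Hsp26, Hsp68 or ERp60 was not tested.

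Differences over all genes moved with gene span, the annotated length from start to end. For 5169 genes brighter than 4 on average, it had a median of -0.18 in the tenth of genes with the shortest spans and of 0.24 in the tenth with the longest. At the spans and levels of the 7 members the fitted trend lay between -0.10 for Hsp27 and 0.068 for Hsc70-3. Once it was subtracted, the log2 difference was 0.91 for Hsp26, 0.56 for Hsp68 and 0.15 for Hsc70-3, and none of the 7 passed. The counts of cell type markers above were not adjusted for span. For the called hemocyte markers Ppn and vkg the trend was 0.22 and 0.098, against differences of 0.85 and 1.11. It was -0.11 for Him, -0.10 for bap and 0.13 for tud. Other hemocyte markers, named after their values were seen, lay on both sides, such as ush (trend 0.27, difference 0.22) and PPO2 (trend -0.061, difference 0.37). RNA integrity was read from control probe sets at both ends of 2 transcripts. The 3′ signal exceeded the 5′ signal of actin by 1.22 to 1.48 in GFP-positive cells and 1.27 to 1.36 in GFP-negative cells (log2), and that of eIF-4a by 2.13 to 2.19 in GFP-positive cells and 2.11 to 2.45 in GFP-negative cells.

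The plot of differences under other settings shows how far each member moved. The differences of Hsp26, Hsp68, Hsc70-3 and Hsp60A were positive in every setting drawn there, and those of Hsp27, Hsc70-4 and Hsc70-5 turned in some. A single prior variance, a replicate block and the filter on dim probe sets leave the difference unchanged, so they could not turn its sign. The same holds for the fit to genes with a span but no adjustment. The other probe set of Hsc70-3 lay below the background level, and its sign shows no direction.

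**Figure D5:**
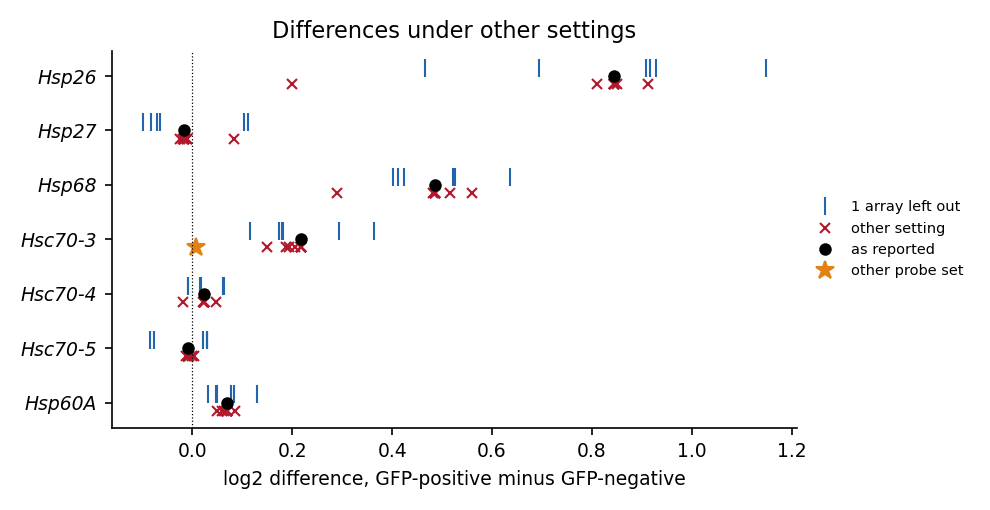
Log2 difference of each member, GFP-positive minus GFP-negative (x axis), as reported (black), without 1 array (blue bars), under other settings (red crosses) and from the other probe set of Hsc70-3 (orange star). Hsp26 ranges from 0.20, with a pseudocount of 32, to 1.15, and Hsp68 from 0.29 to 0.64.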

How the data were processed

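The values deposited by the authors are log2 signals, 1 for each probe set on each array. The affy package is named in the submitters' processing notes. How background, scaling and probe summaries were handled is not given in the sources used here, and the base of the logarithm was read as 2 because the highest value, 12.9, then stays below the 65535 of a 16-bit scanner. Array medians were 3.71 to 3.73, so a shift shared by most genes cannot be seen. The number of arrays, 3 per group, limits the precision. Of 14010 probe sets, 44 controls were left out.

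Genes were named from the platform annotation (1 gene for 12443 probe sets, several for 327, none for 1196). 12394 matched the RefSeq table of Release 6, and no symbol changed. Each gene had the probe set with the highest mean. limma 3.58.1 in R 4.3.3 (lmFit, eBayes with trend and robust, 2-sided) was fitted over 13966 probe sets with Benjamini-Hochberg adjustment. The members, the gene lists and this fit were chosen with earlier results of these data known. Named besides the members were, per chaperone or stress list, up to 4 called genes or the 2 with the smallest p, and up to 4 called markers per cell type. List symbols were matched by current name or a synonym of 1 gene. Sequences and promoter motifs are not analysed here. Alternatives were a single prior variance, a replicate block, quantile or median scaling, array weights, a filter on the dimmest 40% of probe sets, a pseudocount of 32, a span adjustment (a loess trend subtracted), the other probe set, and leaving out each array.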

Additional observations from a re-analysis of the deposited data

How the results depend on the processing

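With 3 arrays per group and signals near background for Hsp26, small differences cannot be resolved. By limma 0 of 7 members passed in each alternative run, including the 6 fits without 1 array. The count of other chaperone and stress genes past the threshold, 4 of 105 as reported, was 0 with a single prior variance, 9 without the dimmest 40% of probe sets, among them the same 4, and 2 after the span adjustment, where the same genes without it, a setting chosen after seeing the data, gave 4. It was 0 to 4 without 1 array. The 5 genes added without the dimmest 40% were hep and trx, higher, and Cdc37, Sgt and spt4 (-0.58, adjusted p = 0.036), lower. Calls over the whole array moved as well, from 340 of 13966 probe sets as reported. They were 0 with a single prior variance and 655 of 8379 without the dimmest 40%. The span adjustment gave 126 of 12394, against 290 of the same probe sets without it. Leaving out 1 array gave 102 to 189 of 13966. Differences near 0 changed sign: Hsp27 was 0.084 after the span adjustment and -0.10 to 0.11 without 1 array, Hsc70-4 was -0.018 after the span adjustment and -0.0095 to 0.064 without 1 array, and Hsc70-5 was 0.0022 with array weights and -0.084 to 0.030 without 1 array. The cause was not tested. Deviations from group means correlated between same-numbered arrays by 0.060, 0.012 and 0.024, and by 0.171, 0.0964 and 0.0431 over probe sets brighter than 4. The main fit did not take the numbers as pairs, a choice made because not every pair exceeded 0.1. Yet 5 of 6 arrays over all probe sets, and 6 of 6 over the brighter ones, correlated best with their own number. The 18S rRNA controls were close for replicate 2 (5.00 GFP-positive, 4.99 GFP-negative) and replicate 3 (6.53, 6.54). They were less close for replicate 1 (4.85, 4.40). Whether arrays of the same number shared a collection or sort was not tested. A replicate block raised the calls over all probe sets to 437, against 340 without it. With a replicate block Hsp68 had an adjusted p of 0.178, no member passed, puc lost its call (0.0515), Gp93, hep and trx gained one, and the count of other chaperone and stress genes was 6.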

Other observations

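Further genes of these lists were picked out after their values were seen. Gp93, the Hsp90 relative of the endoplasmic reticulum, had log2 signals of 10.07, 9.96 and 9.87 in GFP-positive cells, against 9.90, 9.69 and 9.70 in GFP-negative cells, a difference of 0.21 ± 0.073 (SE, limma adjusted p = 0.226). With a replicate block Gp93 passed (adjusted p = 0.046). STUB1, a ubiquitin ligase that takes clients from Hsp70, had 3.82, 4.58 and 4.12 in GFP-positive cells, against 3.11, 2.73 and 1.94 in GFP-negative cells, near the background level. Its difference of 1.58 ± 0.42 did not pass (adjusted p = 0.104). trx, the Trithorax protein gene, had a difference of 0.35 ± 0.076 (adjusted p = 0.052), and the span trend at its length and level was 0.24. trx passed with a replicate block, with median centring, with array weights, without the dimmest 40% of probe sets and without GFP-negative replicate 1 (adjusted p of 0.019 to 0.0496).

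The bacterial and phage spike-in controls averaged 8.88 to 9.26 on the GFP-positive arrays and 8.06 to 8.92 on the GFP-negative arrays. The lowest, 8.06, was on GFP-negative replicate 1. Between the groups their mean was 0.46 higher in GFP-positive cells, and the cause was not tested. The 18S rRNA controls averaged 6.53 on GFP-positive replicate 3 and 6.54 on GFP-negative replicate 3, against 4.40 to 5.00 on the rest.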
